A study of Mus musculus with 32 samples.

Results

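The effects of glipizide and metformin on liver transcripts were set against each other in a factorial of 16 samples, out of 32 in the series. The 16 are all samples titled GM, MET, GLIP or CON, with 4 mice and 4 arrays in each of the 4 groups. The interaction of the 2 drugs is (GM minus MET) minus (GLIP minus CON) on the log2 scale: it is 0 where the combination equals the sum of the single-drug changes. GM mice were fed the control diet with both glipizide and metformin, MET mice the control diet with metformin, GLIP mice the control diet with glipizide, and CON mice 93 kcal per week of the control diet alone. All were male B6C3F1 hybrids, housed singly from 5 months of age, treated for 8 weeks from 20 months, and killed at 22 months, having been fasted for 48 hours. Whole liver RNA was hybridised to Affymetrix MG-U74Av2 arrays, 1 array per mouse. Doses are not given in the sources used here. The labels name no transgene, mutation or disease in these old, fasted mice, and whole liver mixes hepatocytes with all other liver cells.

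Metformin is a biguanide that inhibits mitochondrial respiratory complex I and restrains glucose output by the liver. Glipizide is a sulfonylurea that closes the ATP-sensitive potassium channel of pancreatic beta cells and so releases insulin. Insulin acts on the liver through the transcription factor SREBP-1c, a product of Srebf1, which drives fatty acid synthesis, and SREBP-2 drives cholesterol synthesis. In a factorial design each drug is seen both alone and on top of the other, and MET minus CON shares no array with GM minus GLIP, just as GLIP minus CON shares none with GM minus MET.

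Values are scaled linear intensities and were tested as log2(intensity + 27) over 7357 probe sets. A probe set is named as called where limma's Benjamini-Hochberg adjusted p was under 0.05, and errors of log2 values are standard errors. The columns had a median of 148 ± 4.48 in GM, 156 ± 8.32 in MET, 162 ± 7.18 in GLIP and 164 ± 1.33 in CON (SD, n = 4). Any 2 of the 16 arrays correlated between 0.942 and 0.977, the median being 0.968 for pairs of 1 group and 0.962 for pairs of 2 groups. Alb, the main hepatocyte secretory protein, lay between 31360 and 43680 on every array. Some single arrays stood apart. CON 3 carried skeletal muscle transcripts: 20 muscle genes summed to 25140 units there and to at most 4723 on the other CON arrays, and actin Acta1 reached 7544 against at most 296.9 elsewhere. GLIP 3 was high for 17 macrophage markers, which summed to 23170 against at most 9897 on the other GLIP arrays. GM 3 was high for acute phase genes, with Orm2 at 15990 against at most 902.2 elsewhere. Lcn2 read 10120 there by 1 probe set, and its other probe set read 207.9 to 333.9 over the 16 arrays. The 11 neutrophil markers, Lcn2 among them, summed to 11930 in GM 3 and to at most 2506 on the other GM arrays. Of these markers, S100a8 and S100a9 stayed at or below 160.3 and 73.3 on all 16 arrays. The part of neutrophils was not tested. Some of the results that move without CON 3, GLIP 3 or GM 3 are given with and without them. The 8 hepatocyte markers summed to 231400 to 262600 in GM, 243400 to 255300 in MET, 205300 to 261600 in GLIP and 202600 to 225000 in CON, so that both metformin groups lay above CON. In whole tissue, fewer cells of a type and less RNA per cell cannot be told apart.

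The interaction was called at 3 probe sets, 0.0408% of those tested, 1 higher (0.0136%) and 2 lower (0.0272%). The calls of all 3 were alike: in MET minus CON and in GM minus MET, and not in GM minus GLIP, GLIP minus CON or GM minus CON. Their group ranges differed. GLIP overlapped with CON for Srebf1, lay wholly above CON for the called Pklr probe set, and lay wholly below CON for Nmt1. GM lay wholly below CON for Srebf1, wholly above it for that Pklr probe set, and overlapped with it for Nmt1. Srebf1 and Pklr, which lie on the path from glucose to fat, rose under metformin alone, and Nmt1 fell. An unadjusted p under 0.05 was reached by 653 of the 7357 probe sets, 308 with a positive and 345 with a negative interaction. In any comparison about 1 in 20 probe sets would reach it with no effect, so 653 does not count interacting probe sets. The interaction carries a larger error than an averaged effect, with a median standard error of 0.216 against 0.108.

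Srebf1 encodes SREBP-1, the insulin-responsive regulator of lipogenic genes. Its intensity was 2180.7, 1927.4, 2006.2 and 1915.4 in the GM mice, 4995.1, 3660.1, 3246.2 and 3707.8 in the MET mice, 3000.9, 2297.7, 2859.2 and 2816.4 in the GLIP mice and 2869.4, 2331.3, 2404 and 2562.7 in the CON mice. All MET mice lay above all CON mice, all GM mice lay below all mice of the other groups, and GLIP and CON mice overlapped. The sum of the single-drug changes would put GM at 4149 units, against a measured geometric mean of 2005. The interaction was -1.04 ± 0.18 (adjusted p = 0.0116). Metformin changed Srebf1 by 0.60 ± 0.13 alone (adjusted p = 0.00948), whereas GM minus GLIP was -0.44 ± 0.13 (adjusted p = 0.41).

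Pklr encodes the pyruvate kinase of liver and red cells, the last step of glycolysis, and has 2 probe sets on the array. The called one is the dimmer and was singled out after its values were seen. It read 415.7, 346.3, 371.7 and 433.8 in GM, 1403.5, 877.4, 481.5 and 811.8 in MET, 473.5, 348.1, 506.8 and 535.5 in GLIP and 336.9, 258, 269.3 and 260.7 in CON. Every MET and every GLIP mouse lay above every CON mouse, and so did every GM mouse, yet every GM mouse lay below every MET mouse. Its interaction was -1.71 ± 0.30 (adjusted p = 0.0116), with an additive value of 1343 against a measured 390.4. The brighter probe set gave -0.71 ± 0.19 (adjusted p = 0.143), so the 2 probe sets share the sign but not the size. Its intensity was 593 to 717.5 in GM, 703.7 to 1137.4 in MET, 618.7 to 715.1 in GLIP and 530.3 to 625.4 in CON.

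Nmt1 encodes an N-myristoyltransferase, which joins a fatty acid to the start of proteins. It read 1074.8, 1068.2, 1128.9 and 1050.4 in GM, 800.4, 862.1, 739.5 and 872.9 in MET, 833.9, 958.8, 931.7 and 899 in GLIP and 990.9, 1025.1, 1025.3 and 1063.8 in CON. Each single-drug group lay wholly below CON, and GM lay wholly above both. The interaction was 0.57 ± 0.10 (adjusted p = 0.0116). A second, dimmer Nmt1 probe set gave 0.13 ± 0.17 (adjusted p = 0.889). The 3 probe sets remained called with each of the 16 arrays left out in turn, but in a fit to the 16 arrays alone their adjusted p values were 0.111 for Nmt1, 0.068 for Srebf1 and 0.0836 for Pklr. With all columns scaled to equal medians Srebf1 and Pklr had adjusted p = 0.0537, and Nmt1 remained called. With CON 3, GLIP 3 and GM 3 left out together, the adjusted p was 0.0491 for Nmt1 and 0.0586 for the other two.

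**Figure D1:**
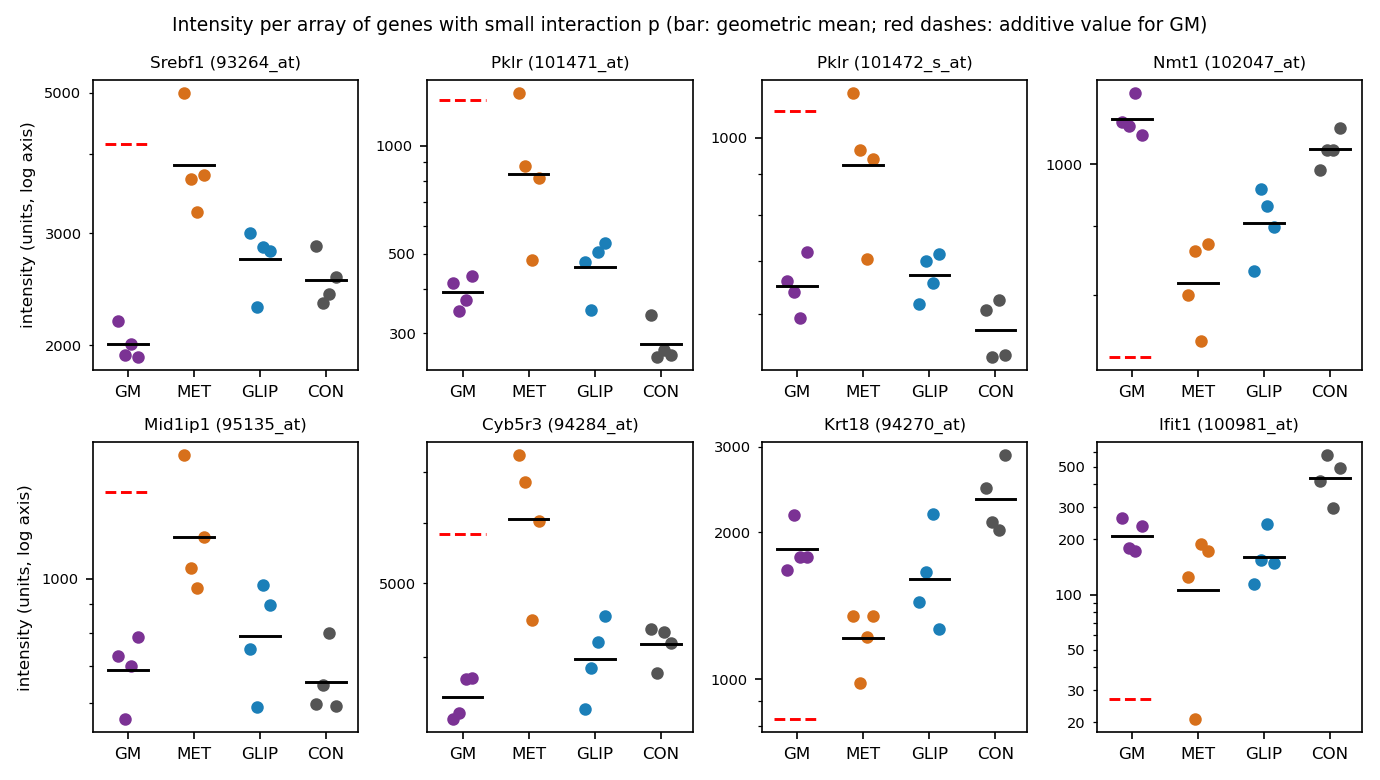
Intensity per array on a log axis (scaled units) for Srebf1, both Pklr probe sets, Nmt1, Mid1ip1, Cyb5r3, Krt18 and Ifit1; points are single mice, black bars are geometric means over 4 arrays, and the red dashes mark the additive value for GM. For Srebf1 the GM mice sit near 2005 and the dashes at 4149, and for Nmt1 the GM mice sit near 1080 and the dashes at 719.8.

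Next in order of p came genes that missed the threshold narrowly, and they are given as values. Mid1ip1, a partner of acetyl-CoA carboxylase and a relative of Thrsp, had 2 probe sets with negative interactions. The dimmer gave -1.16 ± 0.25 (adjusted p = 0.0526) and the brighter gave -1.02 ± 0.29 (adjusted p = 0.177). Mid1ip1 stands here through the dimmer, and by the brighter it is not among the 10 genes with the smallest p. The brighter read 562 to 786 in GM, 963.5 to 1655.4 in MET, 590.5 to 974.3 in GLIP and 592.4 to 801.4 in CON, so that MET alone stood clear of CON. Gamt, which makes creatine, had an interaction of -0.76 ± 0.16 (adjusted p = 0.0526) at its brighter probe set and -0.14 ± 0.12 at the other. Cyb5r3, the reductase that passes electrons to cytochrome b5 for fatty acid desaturation, had -0.71 ± 0.16 (adjusted p = 0.0715). It read 3307.6 to 3753.9 in GM, 4469.2 to 7366.2 in MET, 3408.3 to 4522.8 in GLIP and 3804.7 to 4348.6 in CON, with MET wholly above GM and CON and overlapping with GLIP.

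Other genes near the threshold had positive interactions. Krt18, a keratin of liver epithelia, read 1677.8 to 2176.4 in GM, 983.7 to 1350.8 in MET, 1266.6 to 2186.8 in GLIP and 2024.8 to 2878.1 in CON. MET lay wholly below GM and CON, and its interaction was 1.13 ± 0.24 (adjusted p = 0.0526). Krt18 is also a marker of bile duct cells, whose 8 markers on the array, Krt18 among them, summed to 4799 to 5908 in GM, 3886 to 4778 in MET, 3957 to 5715 in GLIP and 5692 to 7206 in CON; their part in the result was not tested, and the duct keratin Krt19 was at or below 44.8 on every array. Lonp2, the protease of peroxisomes, had 0.68 ± 0.14 (adjusted p = 0.0526), with 3926.4 to 5266.7 in GM, 2566.4 to 3224 in MET, 3144.7 to 3872.3 in GLIP and 3630.6 to 4189.2 in CON. Cyp4a12b, a fatty acid hydroxylase whose probe set can take signal from a near-identical copy, had 1.98 ± 0.42 (adjusted p = 0.0542). It read 3664.7 to 7410 in GM, 1750.7 to 3132.7 in MET, 1782.7 to 5467.2 in GLIP and 6150.4 to 8454.2 in CON, so each single drug lay wholly below CON. Chmp4b, a membrane-remodelling ESCRT subunit, had 0.51 ± 0.12 (adjusted p = 0.0747). Lipa, the acid lipase of lysosomes, had -0.98 ± 0.22 (adjusted p = 0.0747): every pair of groups overlapped, and it read 872.5 to 1464.2 in GM, 1192.9 to 1750.8 in MET, 1192.1 to 1700.9 in GLIP and 867.7 to 1198.4 in CON.

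The 4 simple comparisons put numbers on this over all probe sets. Metformin on top of glipizide (GM minus GLIP) was called at 0 probe sets, 0%, by limma, with a smallest adjusted p of 0.169 and 675 probe sets at an unadjusted p under 0.05. Metformin alone (MET minus CON) was called at 307, or 4.17%, of which 135 were higher and 172 lower, with 1330 at an unadjusted p under 0.05. Glipizide on top of metformin (GM minus MET) was called at 193, or 2.62%, 96 higher and 97 lower. Glipizide alone (GLIP minus CON) was called at 10, or 0.136%, 9 higher (0.122%) and 1 lower (0.0136%). The combination against the control (GM minus CON) was called at 114, or 1.55%, 64 higher (0.87%) and 50 lower (0.68%). Those counts do not test a difference between the 2 settings of a drug; the interaction does, and it called 3.

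Directions were compared, since GM minus GLIP held no call that could be shared. Across the 7357 probe sets, which are not independent replicates, the changes by metformin with and without glipizide correlated at r = 0.102, and those by glipizide with and without metformin at r = 0.191. Of the 307 probe sets called for metformin alone, 217, or 70.7%, had the same sign with glipizide present, against 58.3% of all probe sets. Their median change in the direction of the call was 0.09 with glipizide present and 0.48 without it; the second value is inflated, since it chose them. Of the 193 called for glipizide in the presence of metformin, 143, or 74.1%, had the same sign without metformin, against 58.1% of all, and 2 were also called there. Their median in the direction of the call was 0.10 without metformin and 0.53 with it, again with the chosen value inflated.

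**Figure D2:**
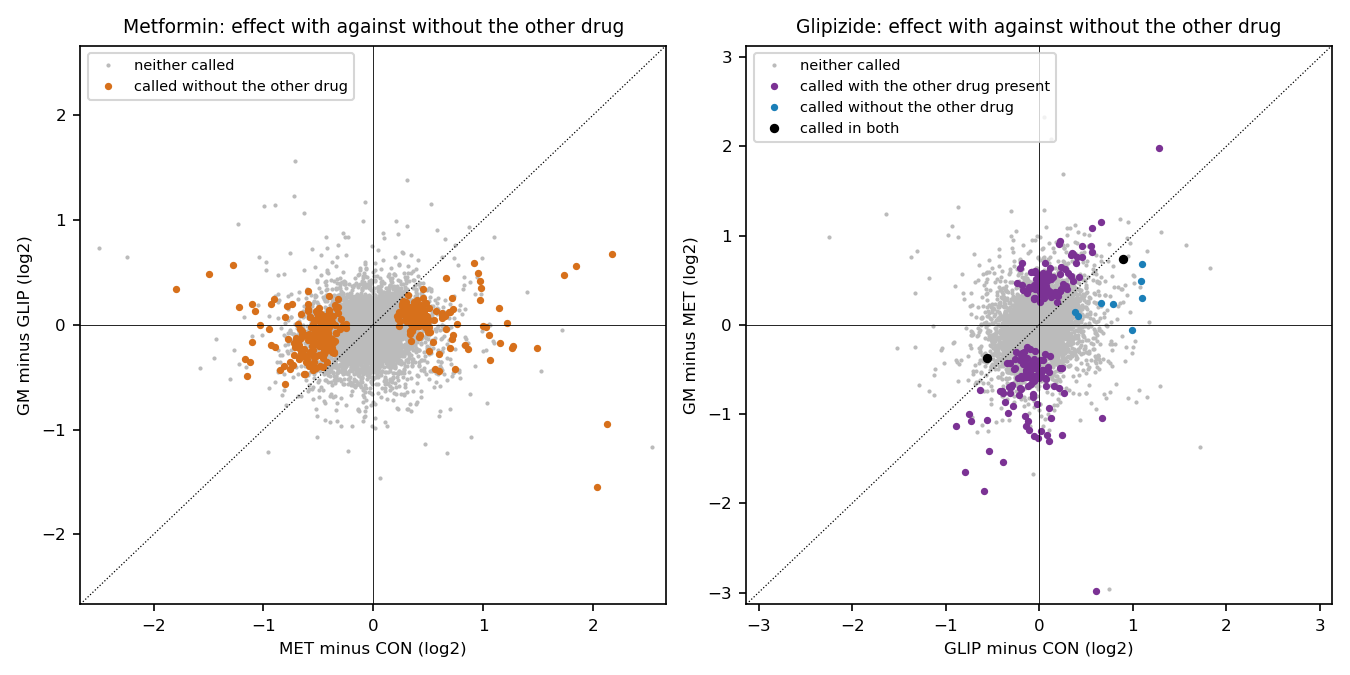
Each point is 1 of 7357 probe sets: on the left the log2 change by metformin with glipizide present (GM minus GLIP) against that without it (MET minus CON), on the right the log2 change by glipizide with metformin present (GM minus MET) against that without it (GLIP minus CON). The dotted line marks equal changes; 307 coloured points on the left are called for metformin alone with 217 of them on the same side of 0 on both axes, and 193 on the right are called for glipizide with metformin with 143 on the same side.

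Of 15 lipogenic genes, 6 rose under metformin alone, and 7 fell with glipizide on top of metformin. Of the 15 measured genes of fatty acid synthesis, 6 rose and 0 fell in MET minus CON, against 1.83% of all probe sets called higher, with a median of 0.46 against -0.03 over all. In GM minus GLIP 0 of 15 were called, as were 0% of all probe sets. The median was -0.003, or 0.12 with columns scaled to equal medians. In GM minus MET 7 fell and 0 rose, against 1.32% of all called lower, with a median of -0.51. GLIP minus CON called 0 of 15, against 0.136% of all. The interaction was negative in 14 of the 15, with a median of -0.44 against -0.01 over all, but Srebf1 was the only one of them called.

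Fads1, a fatty acid desaturase, read 4901.7, 3514.9, 3461.9 and 4524.7 in GM, 9759.7, 7055.4, 4500 and 8172.6 in MET, 3388.4, 3773.9, 3458 and 3167.1 in GLIP and 3418, 3691.1, 3823 and 3522.7 in CON. MET lay wholly above CON, and the other 3 groups overlapped. Fads1 changed by 0.97 ± 0.17 under metformin alone (adjusted p = 0.00219) and by 0.23 ± 0.17 with glipizide present (adjusted p = 0.743), an interaction of -0.73 ± 0.24 that missed the threshold (adjusted p = 0.272). Fasn, fatty acid synthase, read 685.2 to 1101.8 in GM, 904.9 to 2431.8 in MET, 593.9 to 1112.8 in GLIP and 633.4 to 956.1 in CON. Its metformin change was 0.01 ± 0.22 with glipizide and 0.76 ± 0.22 without (adjusted p = 0.0431). Thrsp, the insulin- and thyroid-responsive Spot 14 protein, varied widely: it read 504.7, 320.2, 855.9 and 641.1 in GM, 5094.3, 2574.3, 619.6 and 2168.1 in MET, 826.4, 565.5, 521.5 and 615.1 in GLIP and 845.2, 827.7, 1396.7 and 823.6 in CON. Of the 4 MET mice, 3 were above every mouse of the other groups, and MET 3 was within the range of the GM and GLIP mice.

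The same MET 3 mouse was the lowest of its group for Srebf1, Fads1, Fasn, Pklr, Mid1ip1, Acly and Scd1. Without it, 10 of the 15 lipogenic genes rose in MET minus CON, 9 fell in GM minus MET, and 3 had a called interaction. Without MET 1, the mouse with the highest Thrsp, 3 rose and 4 fell, and without CON 1 or CON 4, 3 rose in MET minus CON. Without GM 3, 3 fell in GM minus MET, and without GM 2 or GM 4, 4 fell. Fat cells share this programme: 10 adipocyte markers summed to 7232 to 15280 in GM, 14810 to 19780 in MET, 11840 to 16330 in GLIP and 16500 to 18230 in CON, with Car3, which hepatocytes express too, at 5248 to 18060, and Adipoq, made by fat cells, at or below 110.1 except in CON 3. Their part in the result was not tested. Slc25a1, the mitochondrial citrate carrier, was called in MET minus CON at 0.57 ± 0.10, and was 0.13 ± 0.10 in GM minus GLIP. Elovl5, a fatty acid elongase, was called in MET minus CON at 0.46 ± 0.13 and was 0.25 ± 0.13 in GM minus GLIP, an interaction of -0.20 ± 0.18. Acly, ATP citrate lyase, had 0.38 ± 0.13 in MET minus CON (adjusted p = 0.0854) and an interaction of -0.44 ± 0.18. Scd1, stearoyl-CoA desaturase, had an interaction of -0.25 ± 0.40, which turned to 0.14 without GM 3.

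Cholesterol synthesis and uptake had 5 genes called for metformin alone. Of 15 measured, 5 rose and 0 fell in MET minus CON, against 1.83% of all probe sets called higher, with a median of 0.66. In GM minus GLIP 0 were called, as were 0% of all probe sets, with a median of 0.15. In GM minus MET 2 fell and 0 rose, against 1.32% of all called lower. All 15 interactions were negative, with a median of -0.42, and 0 were called. The number negative was 14 with equal medians and 12 without MET 1, and 1 was called lower without MET 3 and 1 without GLIP 3. Fdps, farnesyl diphosphate synthase, read 1498.8, 796.3, 3060.8 and 1941 in GM, 8608.4, 2859.3, 1328.9 and 4319.5 in MET, 782.5, 850.4, 931.2 and 1715.5 in GLIP and 562.3, 1664.3, 710.2 and 460.7 in CON. The groups overlapped in each pair, and MET 3 was again the lowest MET mouse. Its metformin change was 0.67 ± 0.46 with glipizide and 2.17 ± 0.46 without (adjusted p = 0.00791), an interaction of -1.50 ± 0.65 (adjusted p = 0.477). Idi1, the isomerase that acts just before it, had 0.47 ± 0.51 with glipizide and 1.74 ± 0.51 without. Nsdhl, a sterol dehydrogenase, had 0.35 ± 0.21 with glipizide and 0.98 ± 0.21 without. Sqle, squalene epoxidase, had 0.64 ± 0.31 with glipizide and 0.99 ± 0.31 without, neither of them called. The number that rose in MET minus CON was 3 when MET 1, MET 2, MET 4, CON 1, CON 3 or CON 4 was left out, 3 without a filter, 3 in the fit to the 16 arrays alone and 7 without MET 3.

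**Figure D3:**
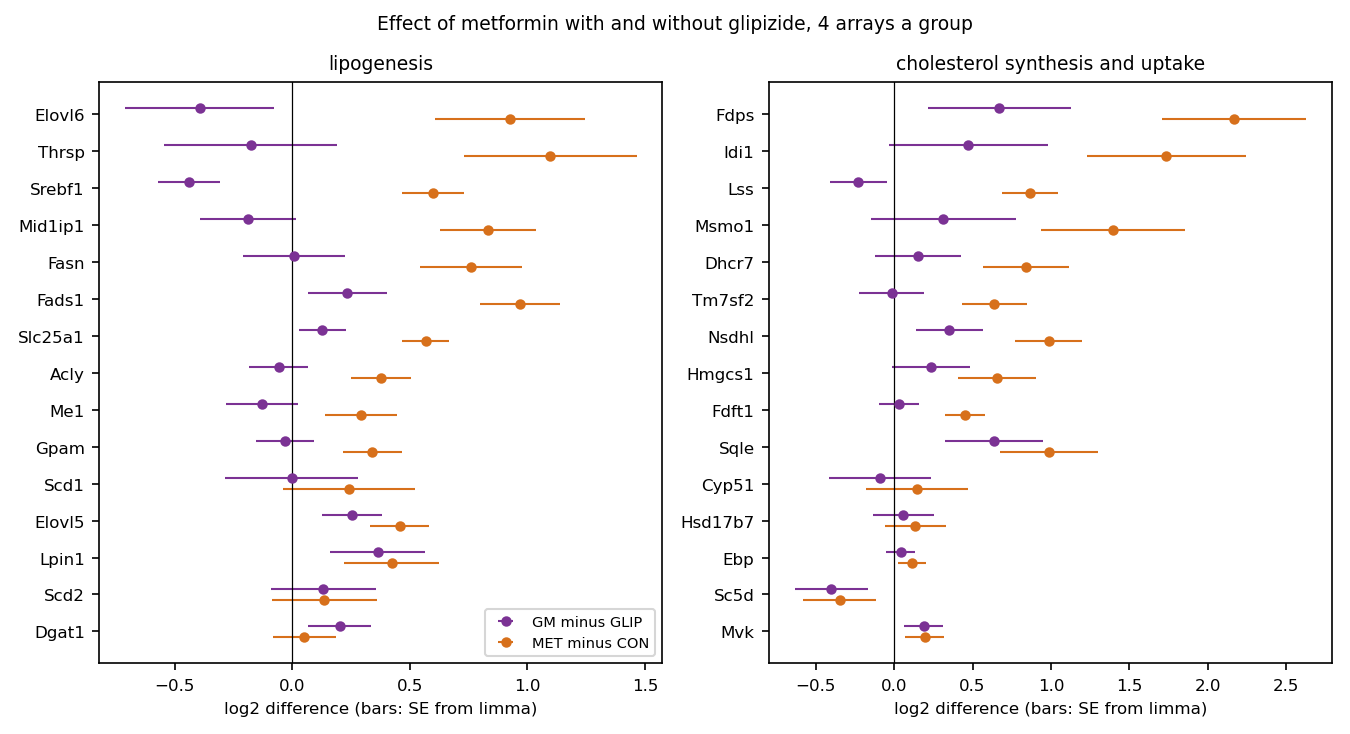
Log2 change by metformin with glipizide present (GM minus GLIP) and without it (MET minus CON) for 15 lipogenic and 15 cholesterol genes, in order of interaction; bars are standard errors from the fit, with 4 arrays a group. The values without glipizide lie to the right of those with it for 14 of the 15 lipogenic genes and for all 15 cholesterol genes.

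Of 20 interferon genes, 10 fell under metformin alone, and 0 interactions were called. Of the 20 measured genes of interferon response and antigen processing, 10 fell and 0 rose in MET minus CON, against 2.34% of all probe sets called lower, with a median of -0.57. In GM minus GLIP 0 were called, as were 0% of all probe sets, and the median was -0.03. In GM minus MET 1 rose and 0 fell, against 1.3% of all called higher. In GLIP minus CON 0 were called, against 0.136% of all, with a median of -0.17. The interaction was positive in 18 of 20, with a median of 0.65 and 0 called. Leaving out GLIP 3, the array high for macrophage markers, left a median of 0.76 and 3 called, and leaving out CON 4 left 4 falling in MET minus CON in place of 10. That number was 5 without MET 2, 6 without MET 1 or CON 1, and 6 with equal medians.

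Many interferon-induced genes carry interferon-stimulated response elements near their start. The core of this element, GAAA followed by GAAA with 2 bases of any kind between, was searched on both strands in the 250 bases before each start in the RefSeq promoter table for GRCm38.p6. It occurred in 2.98% of 32851 promoter windows and, counted by gene, in 3.46% of 27025 genes. Of the list members with a promoter there, 8 of 18 carried it. These were 7 of the 9 that fell in MET minus CON and 1 of the 9 that were not called lower. The list joins genes of interferon response with genes of antigen processing, and the part of that make-up in these counts was not tested. The stretches next to the start of Ifit1 (chr19:34640769-34640888, plus strand) and Irgm1 (chr11:48871421-48871540, minus strand) show the core, with the matches in capitals. Both matches of Ifit1 lie on the opposite strand, and those of Irgm1 overlap.
Ifit1: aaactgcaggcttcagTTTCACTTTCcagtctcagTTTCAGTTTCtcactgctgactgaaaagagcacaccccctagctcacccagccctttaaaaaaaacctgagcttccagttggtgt
Irgm1: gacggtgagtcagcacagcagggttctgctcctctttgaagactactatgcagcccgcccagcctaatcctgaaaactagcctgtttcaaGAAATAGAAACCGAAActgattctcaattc

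Ifit1, an antiviral protein that binds viral RNA, read 262.3, 178.8, 172.8 and 237.9 in GM, 125, 20.8, 189.2 and 173.7 in MET, 113.5, 154.8, 243.4 and 149.1 in GLIP and 418.6, 576.4, 298.6 and 492.9 in CON. Both single-drug groups lay wholly below CON, and GM overlapped with both. The additive value for GM was 26.88, just under the added value of 27, against a measured 209.9, and the interaction was 2.14 ± 0.48 (adjusted p = 0.0747). Irgm1, an interferon-inducible GTPase, read 365.3, 349.3, 343.2 and 344.8 in GM, 224.9, 202.8, 226.4 and 209.4 in MET, 392.5, 412.2, 663.6 and 364.8 in GLIP and 534.2, 658.2, 401 and 508.1 in CON. It changed by -1.17 ± 0.17 under metformin alone (adjusted p = 0.000494) and by -0.32 ± 0.17 with glipizide present (adjusted p = 0.578), an interaction of 0.84 ± 0.24 (adjusted p = 0.177). Isg15, a ubiquitin-like modifier, changed by -0.12 ± 0.20 with glipizide and by -0.70 ± 0.20 without (adjusted p = 0.0404).

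**Figure D4:**
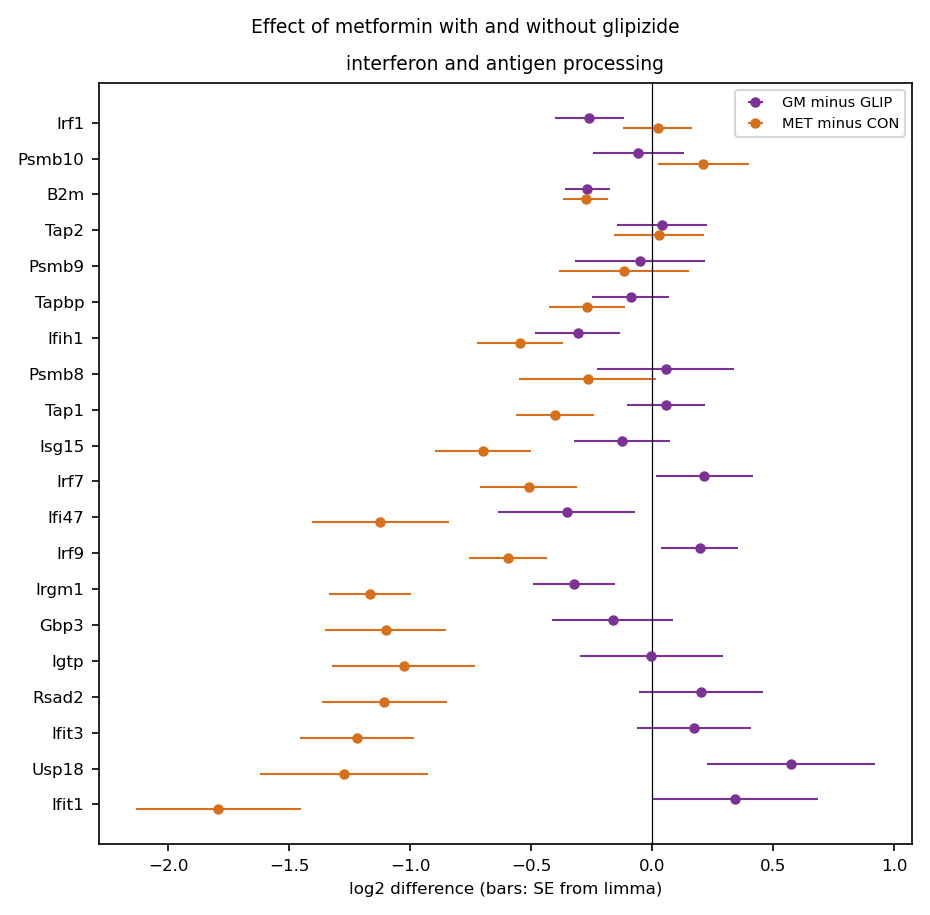
Log2 change by metformin with glipizide present (GM minus GLIP) and without it (MET minus CON) for 20 genes of interferon response and antigen processing, in order of interaction; bars are standard errors from the fit, with 4 arrays a group. The changes without glipizide reach -1.79 at Ifit1, while those with it lie on both sides of 0.

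The averaged metformin effect, the mean of GM minus GLIP and MET minus CON, was called at 219 probe sets, 2.98%, of which 93 were higher (1.26%) and 126 lower (1.71%). Scaling to equal medians turned that split: it called 424, of which 89.9% were higher, against 42.5% here, and the median change over all probe sets was 0.055, against -0.04 here. Small changes by metformin are therefore to be read relative to that shift. The sterol and desaturase genes led the rises, with Fdps at 1.42 ± 0.33, Sqle at 0.81 ± 0.22, Nsdhl at 0.67 ± 0.15 and Fads1 at 0.60 ± 0.12. Dbi, the acyl-CoA binding protein, had 0.44 ± 0.11. Of 25 genes of fatty acid oxidation 3 rose and 0 fell, against 1.26% of all called higher: Cpt1a, the carnitine transferase that admits fatty acids to mitochondria, had 0.28 ± 0.08, Eci1, an enoyl-CoA isomerase, 0.31 ± 0.08, and Hadh, a hydroxyacyl-CoA dehydrogenase, 0.24 ± 0.07. For Cpt1a the change was 0.30 ± 0.11 with glipizide and 0.25 ± 0.11 without, neither of them called alone. In MET minus CON 0 of the 25 were called higher and 2 lower, against 2.34% of all called lower. The median there was -0.04, against -0.03 over all. GM minus GLIP called 0 of the 25, as it did 0% of all probe sets, with a median of 0.25. Their interaction was positive in 22 of 25, with a median of 0.19 and 0 called.

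The averaged metformin effect called 6 of 56 respiratory chain and ATP synthase genes higher and 1 lower, against 1.26% of all probe sets called higher and 1.71% lower. Atp5e, a small ATP synthase subunit, read 3473.7, 2679.1, 2649.3 and 3008.2 in GM, 2398.1, 2090.1, 2343.1 and 3272.4 in MET, 2250.3, 1983.6, 1938.2 and 1919.1 in GLIP and 1915.2, 1677.2, 2376.2 and 1704.5 in CON. GM lay wholly above GLIP, MET and CON overlapped, and the averaged change was 0.46 ± 0.10 (adjusted p = 0.0096). The complex III subunits Uqcr10 and Uqcrh had 0.22 ± 0.05 and 0.21 ± 0.06. The complex IV subunit Cox6c fell, at -0.31 ± 0.06 and, by a second probe set, at -0.57 ± 0.12. Its intensity was 6480 to 8117.5 in GM, below the 8321.5 to 9365.1 in GLIP, and 6705.8 to 7848.7 in MET, below the 8173.3 to 9779.3 in CON. In the averaged glipizide effect 0 of the 56 rose and 2 of the complex I subunits fell, Ndufs1 by 0.28 ± 0.07 and Ndufb8 by 0.29 ± 0.08, against 1.39% of all called higher and 1.16% lower. Neither stayed called with equal medians, in the fit to the 16 arrays alone, or without GM 3, MET 4 or CON 3, and Ndufb8 also lost its call without a filter and without MET 2, GLIP 1, GLIP 3, GLIP 4 or CON 1.

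Some abundant transcripts had small rises under metformin. Rpl41 rose by 0.34 ± 0.07 and Rpl19 by 0.23 ± 0.06, 2 of 24 ribosomal protein genes measured, against 1.26% of all called higher. A much dimmer Rpl19 probe set had means of 104.3 in GM, 157.9 in MET, 200.2 in GLIP and 121.9 in CON, with all pairs of groups overlapping. Apoc1 and Apoa1, apolipoproteins of HDL, rose by 0.24 ± 0.05 and 0.29 ± 0.07, and Abca1, the exporter that loads HDL with cholesterol, fell at its brighter probe set by 0.37 ± 0.08, while the other probe set had a change of the opposite sign, 0.04 ± 0.11, that was not called. Cyp2e1, the ethanol-inducible P450, rose by 0.24 ± 0.06, and Cyp3a25 changed by -0.30 ± 0.07. Qdpr, which recycles tetrahydrobiopterin, rose by 0.37 ± 0.07, Dad1, a subunit of the oligosaccharyltransferase, by 0.40 ± 0.08, and Ppdpf by 0.37 ± 0.08. Dad1 read 3507.6 to 4088.9 in GM, wholly above 2775.6 to 3325.2 in GLIP, and 3146.5 to 4703.7 in MET, wholly above 2461.7 to 3009.9 in CON; its dimmer probe set gave -0.16 ± 0.13, not called.

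The largest falls in the averaged metformin effect included the interferon genes Irgm1 at -0.74 ± 0.12, Ifi47, another GTPase, at -0.74 ± 0.20, and Gbp3, a guanylate-binding protein, at -0.63 ± 0.18. B2m, the light chain of MHC class I, fell by 0.27 ± 0.07, with -0.27 ± 0.09 with glipizide and -0.28 ± 0.09 without. Lap3, a leucine aminopeptidase, read 96, 190.6, 190.5 and 152.9 in GM, 113, 115.3, 102.7 and 100.7 in MET, 206.9, 182.3, 302.5 and 224.4 in GLIP and 346.9, 298.6, 240.4 and 218.8 in CON, an averaged change of -0.82 ± 0.14 (adjusted p = 0.00234). Pdia3, a disulfide isomerase of the endoplasmic reticulum, had -0.64 ± 0.14, and C1d, a cofactor of the nuclear exosome, -0.69 ± 0.14. Galnt3, which starts mucin-type glycosylation, had -0.61 ± 0.13 and lay lower with metformin in both settings without overlap: 54.3 to 97.7 in GM against 107.3 to 146 in GLIP, and 60.3 to 94.3 in MET against 111.1 to 149.3 in CON. Dram2, a lysosomal membrane protein, Cldn1, a tight junction protein, and Cfl2, an actin-severing cofilin, had -0.55 ± 0.11, -0.57 ± 0.16 and -0.56 ± 0.16. The dimmer Cldn1 probe set had closer means, 115.8 in GM, 153.6 in MET, 138.7 in GLIP and 175.4 in CON.

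The averaged glipizide effect, the mean of GM minus MET and GLIP minus CON, was called at 187 probe sets, 2.54%, with 102 higher (1.39%) and 85 lower (1.16%). With equal medians 221 were called and 81.4% of them were higher, against 54.5% here. Those that rose included 7 chaperone genes of the endoplasmic reticulum and the acute phase protein Saa3, while Thrsp, Mme, Scd1 and Cyp2b10 fell. Of 24 measured chaperone and stress genes of the endoplasmic reticulum, 7 rose and 0 fell, against 1.39% of all called higher, with a median of 0.25 against -0.01 over all. In GM minus MET 7 rose, against 1.3% of all called higher, and in GLIP minus CON 1 rose, against 0.122% of all. The medians there were 0.32 and 0.22. Without GM 3, the mouse with high acute phase transcripts, 6 rose in the averaged effect and 3 in GM minus MET, with medians of 0.20 and 0.23. The interaction of the list had a median of 0.18 and 0 called.

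The unfolded protein response raises such chaperones through ATF6, which binds, with NF-Y, the endoplasmic reticulum stress element CCAAT, then 9 bases of any kind, then CCACG. The element was searched on both strands in the same 250-base windows. It occurred in 0.113% of 32851 windows and, counted by gene, in 0.13% of 27025 genes. Of the list members with a promoter there, 6 of 21 carried it. These were 3 of the 15 that were not called higher and 3 of the 6 that rose. Those 3 are shown because they carry the element and rose, with the match in capitals: Hspa5 (chr2:34771840-34772089, plus strand), Creld2 (chr15:88819396-88819645, plus strand, match on the opposite strand) and Dnajc3 (chr14:118937682-118937931, plus strand). The match began 65, 126 and 105 bases before the start.
Hspa5: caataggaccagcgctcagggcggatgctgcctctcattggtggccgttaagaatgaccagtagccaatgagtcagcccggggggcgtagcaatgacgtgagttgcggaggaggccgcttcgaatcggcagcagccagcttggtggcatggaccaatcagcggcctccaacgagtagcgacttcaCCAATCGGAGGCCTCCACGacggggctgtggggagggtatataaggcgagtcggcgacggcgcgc
Creld2: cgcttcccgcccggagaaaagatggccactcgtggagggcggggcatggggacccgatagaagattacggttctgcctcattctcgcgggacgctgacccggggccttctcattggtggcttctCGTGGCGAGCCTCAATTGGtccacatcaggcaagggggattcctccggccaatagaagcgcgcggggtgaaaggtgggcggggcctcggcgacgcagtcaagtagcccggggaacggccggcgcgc
Dnajc3: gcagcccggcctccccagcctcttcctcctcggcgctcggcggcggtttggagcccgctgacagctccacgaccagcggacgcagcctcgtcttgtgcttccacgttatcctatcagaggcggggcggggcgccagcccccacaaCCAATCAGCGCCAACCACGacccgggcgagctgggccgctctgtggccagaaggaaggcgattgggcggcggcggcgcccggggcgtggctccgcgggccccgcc

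Hspa5, the HSP70 chaperone BiP of the secretory pathway, read 5174.6, 6110.6, 8322.8 and 6691.8 in GM, 4242.6, 3729.6, 4412.4 and 3713.7 in MET, 7621.1, 6056.8, 6903.2 and 9391.6 in GLIP and 5840, 5957.5, 5280.5 and 5493.4 in CON. GM lay wholly above MET, GLIP lay wholly above CON, and MET lay wholly below CON. The averaged glipizide change was 0.54 ± 0.10 (adjusted p = 0.00461) and the interaction 0.30 ± 0.21 (adjusted p = 0.72). Creld2, a stress-induced secreted factor, read 581.8, 507.6, 959 and 646.7 in GM, 255.1, 234.8, 367.3 and 277.3 in MET, 771.6, 422.7, 526.3 and 982.8 in GLIP and 341.4, 425.6, 390.3 and 435.8 in CON, an averaged change of 0.91 ± 0.16. GM lay wholly above MET and CON, and GLIP overlapped with CON. Dnajc3, which restrains the stress kinase PERK, rose by 0.58 ± 0.10, and its other probe sets gave 0.82 ± 0.13 and 0.46 ± 0.14. Pdia4, a disulfide isomerase, read 2159.2, 1928.7, 1997.7 and 2035.5 in GM, 1631.7, 1461.1, 893.9 and 1177.7 in MET, 2442.5, 2011.4, 2046.8 and 2979 in GLIP and 1226.7, 1060.1, 937.5 and 1098.5 in CON. It was higher without overlap in both settings, by 0.68 ± 0.20 on top of metformin (adjusted p = 0.0708) and 1.10 ± 0.20 alone (adjusted p = 0.0174). Manf, a neurotrophic factor released under stress, Dnajb11, a co-chaperone of Hspa5, and Pdia3 rose by 0.72 ± 0.14, 0.67 ± 0.12 and 0.58 ± 0.14.

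**Figure D5:**
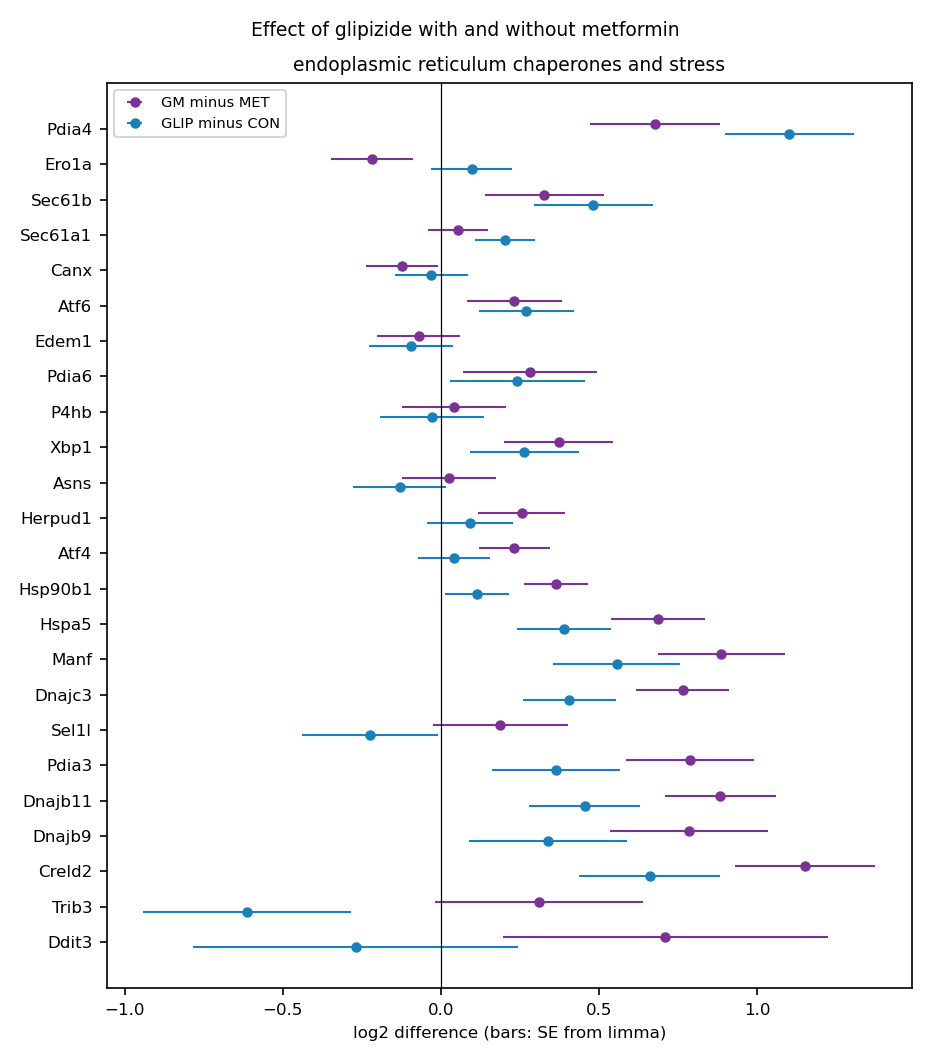
Log2 change by glipizide with metformin present (GM minus MET) and without it (GLIP minus CON) for 24 chaperone and stress genes of the endoplasmic reticulum, in order of interaction; bars are standard errors from the fit, with 4 arrays a group. Most values lie right of 0 in both settings, with Creld2 at 1.15 and 0.66.

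Of 25 cytosolic and mitochondrial chaperones, 2 rose in the averaged effect, against 1.39% of all called higher: Bag3, a co-chaperone of HSP70, by 0.60 ± 0.11 at its brighter probe set and 0.82 ± 0.19 at the other, and Hsph1 by 0.72 ± 0.18. Bag3 read 606.8 to 994.9 in GM, 474.4 to 642.5 in MET, 631.2 to 886.2 in GLIP and 403 to 471.1 in CON. Of 32 proteasome genes, 2 rose in the averaged effect, against the same 1.39%, and 7 rose and 0 fell in GM minus MET, against 1.3% of all called higher, with a median of 0.23. The regulatory subunit Psmd4 had 0.54 ± 0.11 in GM minus MET and 0.10 ± 0.11 in GLIP minus CON, and Psmc5, an ATPase of the same particle, 0.25 ± 0.07 and 0.19 ± 0.07. Without GM 2 or GM 4, 3 proteasome genes rose in GM minus MET.

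Saa3, an acute phase protein made by liver and macrophages, had the largest averaged rise. It read 383, 575.5, 712.6 and 661.1 in GM, 135.6, 83.5, 301.1 and 61.2 in MET, 516.6, 613.9, 536.2 and 719.5 in GLIP and 234.8, 275.6, 200.4 and 209.3 in CON. The groups with glipizide lay above those without it and did not overlap, and the averaged change was 1.63 ± 0.25 (adjusted p = 0.00119). Of 23 acute phase genes 1 rose in the averaged effect, Saa3, against 1.39% of all called higher. In GM minus MET 2 rose, Saa3 and the fibrinogen chain Fgb, against 1.3% of all called higher, with a median of 0.48 that was 0.27 without GM 3. That number was 1 without GM 2, GM 3, MET 2, MET 3 or MET 4, with quantile normalization, without a filter, in the 16 arrays alone and without the arrays that carried muscle transcripts. Irs2, the insulin receptor substrate of liver, had 1.23 ± 0.28 and read 289.2, 242, 81.3 and 398.4 in GM, 109.8, 238.2, 66 and 71 in MET, 326.8, 253.3, 104.4 and 104.8 in GLIP and 51.5, 68.1, 30.6 and 23.9 in CON, where 1 array lay below the added value. Hip1r, an adaptor of clathrin and actin, had 1.18 ± 0.31, although GLIP 4 at 69.2 lay far under the other GLIP mice. Cflar, which blocks caspase-8, had 0.79 ± 0.16, Mrtfa, an actin-regulated coactivator, 0.82 ± 0.21, Tbx3, a transcription factor, 0.70 ± 0.12, and Cyp1a2 0.64 ± 0.18. Tbx3 was called in GLIP minus CON at 1.10 ± 0.17 and was 0.30 ± 0.17 in GM minus MET, with an interaction of -0.80 ± 0.23 (adjusted p = 0.195).

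Among the falls, Mme, the peptidase neprilysin, had the smallest p of the averaged glipizide effect. It read 146.1, 106.1, 73.9 and 186.5 in GM, 537.8, 410.4, 401.8 and 424.3 in MET, 179, 214, 181.3 and 200.5 in GLIP and 452.5, 289, 421.3 and 287.2 in CON. No glipizide mouse reached any mouse without glipizide, and the change was -1.22 ± 0.15 (adjusted p = 4.87e-05). Scd1 read 19442, 16951.8, 5979.1 and 15734.2 in GM, 31692.2, 38308.9, 18341.5 and 32280.8 in MET, 8616.7, 18256, 13614.4 and 14595.6 in GLIP and 24666.3, 24059.7, 27850.7 and 22165.6 in CON. It was lower with glipizide by 1.13 on the log2 scale on top of metformin and by 0.89 alone; the averaged change was -1.01 ± 0.20 (adjusted p = 0.00519). Of the 15 lipogenic genes 5 fell in the averaged effect, against 1.16% of all called lower, with Thrsp at -1.22 ± 0.26, Srebf1 at -0.41 ± 0.09, Gpam, an acyltransferase of triglyceride synthesis, at -0.33 ± 0.09 and Fads1 at -0.44 ± 0.12 beside Scd1. That number was 3 when any 1 array other than GM 1, MET 3, GLIP 2 and CON 4 was left out. The second Scd1 probe set also fell, by 0.43 ± 0.11. The 2 settings differed for this list. GLIP minus CON called 0 of the 15, against 0.136% of all, with a median of -0.028. GM minus MET called 7 lower, against 1.32% of all, with a median of -0.51. Srebf1, whose interaction was called, had a mean of 2744 in GLIP and 2542 in CON, so its averaged fall does not describe glipizide alone.

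Of 18 measured P450 genes of families 1 to 3, 1 was called higher and 1 lower in the averaged glipizide effect, and of 4 drug transport and target genes 2 were called lower, against 1.39% of all probe sets called higher and 1.16% lower. Cyp2b10, a P450 induced by the receptor CAR, read 503.9, 419.2, 291.3 and 416.8 in GM, 1000.1, 874.1, 671 and 993.1 in MET, 487.2, 414.5, 482.3 and 363.4 in GLIP and 796, 424.6, 1133.4 and 767.7 in CON, a change of -0.90 ± 0.17 (adjusted p = 0.00406). Cyp2c39 had -0.26 ± 0.08, not called (adjusted p = 0.0738). Abcb1a, a drug efflux pump, fell by 0.88 ± 0.19, with 65.5 to 69.7 in GM and 102.6 to 212 in MET. Abcc9, a sulfonylurea receptor subunit of potassium channels, fell by 0.51 ± 0.14, with 68.5 to 140.8 in GM, 171.1 to 198.9 in MET, 88.7 to 162.6 in GLIP and 113.2 to 220.8 in CON. The pancreatic sulfonylurea receptor Abcc8 was dim, at 12.7 to 57.3 units by one probe set and 24.1 to 171.6 by the other. Pltp, the phospholipid transfer protein of plasma, had -0.65 ± 0.17. Its means were 1380 in GM against 3216 in MET, but 1842 in GLIP against 1886 in CON. Lgals1, galectin-1, had -0.69 ± 0.12, Ada, adenosine deaminase, -0.97 ± 0.26, Fhit -0.82 ± 0.17 and Mutyh, a DNA glycosylase, -0.65 ± 0.17.

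Of 9 measured gluconeogenesis genes, 0 had a called interaction and 1 rose in MET minus CON, against 1.83% of all called higher: Fbp1, fructose bisphosphatase, by 0.21 ± 0.06 (adjusted p = 0.0404). Pck1, the gluconeogenic carboxykinase, read 4160.9 to 4657.4 in GM, 2420.6 to 5160.7 in MET, 3105.8 to 4139.1 in GLIP and 3542.3 to 4561.5 in CON, with an interaction of 0.58 ± 0.20 (adjusted p = 0.327). GM lay wholly above GLIP, and the other pairs overlapped. G6pc, glucose-6-phosphatase, had an averaged metformin change of 0.42 ± 0.18 and Fbp1 0.15 ± 0.04, neither of them called (adjusted p = 0.213 and 0.0509). Igfbp1, an insulin-repressed binding protein, had an interaction of 1.09 ± 0.49 (adjusted p = 0.524), Gadd45a, a growth arrest gene, 0.26 ± 0.34 (adjusted p = 0.882) and Txnip, a glucose-responsive inhibitor of thioredoxin, -0.003 ± 0.44, a value whose sign varied with the setting. The second Txnip probe set gave 0.007 ± 0.19. Igf1, the growth factor secreted by liver, had an averaged metformin change of 0.27 ± 0.09 (adjusted p = 0.0874).

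Of 13 tested macrophage markers, 11 had a negative interaction, with a median of -0.78 and 0 called, and without GLIP 3 the median was -0.20. The summed level of the 17 markers on the array was 5634 to 10260 in GM, 7890 to 11090 in MET, 6582 to 23170 in GLIP and 6698 to 8297 in CON. Clec4f and Cd5l, markers of Kupffer cells, were highest in GLIP 3, at 1946 and 1861. Marco was under 27 on all 16 arrays.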

How the data were processed

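The authors deposited 1 linear intensity per probe set and array, already scaled: each column's mean without its top and bottom 2% lay between 500.4 and 500.5, which is read from the table. Software, background correction, detection calls, scan dates and batches are not given in the sources used here. Of 12422 non-control probe sets, the platform annotation gave 1 symbol for 10833, several for 396 and none for 1193, and only the first were named. Intensities were used as log2(intensity + 27), 27 being the 20th percentile, which understates changes of dim genes. Probe sets with a mean above the 40th percentile (94.2) were kept, 7357 for 5545 genes, each gene represented by its brightest probe set.

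Limma 3.58.1 in R 4.3.3 was fitted once over the 8 groups of the series, with an intensity trend, 24 residual and 4.59 prior degrees of freedom, and Benjamini-Hochberg adjustment at 0.05 within each comparison. The p-values measure the spread between mice. Promoters are RefSeq windows. The factorial, gene lists, and rule for named genes were chosen with earlier results of these data known. The rule took the interaction genes past the threshold, the 10 with the smallest p, the 10 largest rises and falls of each averaged effect with both components of 1 sign, the 4 smallest p of each list with at least 2 called, and a panel of metabolic genes, and allowed omissions: 27 of 122 places it filled are not in the text, among them Atp5mpl of the largest rises. The dimmer Pklr probe set, Cyp2b13 and the acute phase gene Fgb in GM minus MET were named after their values were seen. Alternatives were quantile normalization, equal medians, added values of 1 and at the 40th percentile, no filter and one at the 60th, the 16 arrays alone, a replicate block, and arrays left out. The muscle arrays left out were the 4 of the series whose muscle sum exceeded 3 times the median. Only CON 3 of them is in the factorial. The others enter only the estimate of the spread. Same-numbered mice did not deviate together: 24 correlations of deviations lay between -0.129 and 0.14, with 2 above 0.1.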

Additional observations from a re-analysis of the deposited data

Results flagged for a closer look

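The interaction of the drugs was itself past the threshold at Pklr (-1.714 at its dimmer probe set), Nmt1 (0.568) and Srebf1 (-1.039), where the effect of one drug differed between mice with and without the other.

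Of 368 groups of 4 mice tested over the named genes, 16, or 4.35%, held a mouse far from its group, where chance gives about 1 in 20. High were Rpl41 in MET 3 (33225, with 28636.6 to 29099.3 in the other MET mice), Pklr, dimmer probe set, in CON 1 (336.9, with 258 to 269.3), Gpam in GM 1 (2027.1, with 1780.8 to 1811.5), Thrsp in CON 3 (1396.7, with 823.6 to 845.2), Abca1 in GM 3 (1806.9, with 1489.8 to 1518.2), Dbi in GLIP 4 (9105.2, with 7302 to 7442.6), Ndufs1 in GLIP 2 (1828.8, with 1645.2 to 1666.8) and Rpl19 in CON 4 (6684.9, with 6409.9 to 6425.7). Low were Cox6c in CON 2 (8173.3, with 9532.1 to 9779.3 in the other CON mice), Chmp4b in GLIP 1 (1685.9, with 1939.1 to 1994.1), Uqcr10 in CON 4 (4274.4, with 4533.1 to 4559.5), Hadh in MET 3 (6981.9, with 8744.5 to 9062.3), Lonp2 in GLIP 4 (3144.7, with 3786.2 to 3872.3), Ndufb8 in GM 3 (2174, with 2838.8 to 2973.7), Hip1r in GLIP 4 (69.2, with 239.2 to 284.8) and Cyp2c39 in GLIP 3 (3599, with 4949.3 to 5017.6).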

How the results depend on the processing

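All 3 called interactions kept their sign under every alternative and their call with each array left out. The interaction count was 12 with quantile normalization, 1 with equal medians, 10 with an added value at the 40th percentile, 8 with the stricter filter, 0 in the fit to the 16 arrays alone, 6 with a replicate block, 5 without the muscle arrays and 7 without CON 3, GLIP 3 and GM 3, a setting chosen after seeing the data. With single arrays left out it ran from 3 to 23: 23 without MET 3, 20 without GLIP 3, 13 without MET 4, 11 without CON 2 and 8 without GLIP 1. The averaged metformin count was 128 with quantile normalization, 424 with equal medians, 141 without a filter, 67 in the 16 arrays and 108 without the 3 arrays, and 99 to 290 with single arrays left out (99 without GM 1, 109 without GLIP 3, 116 without CON 1, 120 without GLIP 4, 139 without CON 4, 141 without GM 4). The averaged glipizide count was 120 without a filter, 84 in the 16 arrays, 124 without the muscle arrays and 109 without the 3 arrays, and 115 (without MET 2) to 277 with single arrays left out. MET minus CON gave 105 in the 16 arrays and 123 without the muscle arrays, and 140 (without CON 4) to 337; 156 without CON 1, 173 without CON 3, 195 without MET 3 and 199 without MET 4. GM minus MET gave 75 in the 16 arrays and 92 without the 3 arrays, and 94 (without GM 3) to 226; 99 without MET 2, 105 without GM 4 and 108 without GM 2. GLIP minus CON gave 6 with equal medians and 6 without a filter, 5 in the 16 arrays, 4 with the replicate block, 0 without the muscle arrays and 4 without the 3 arrays, and 1 to 13 with single arrays left out (1 without GLIP 1, 2 without GLIP 4 or CON 4, 4 without GLIP 2, 5 without GLIP 3, 6 without CON 3 or MET 4). GM minus GLIP gave 1 with equal medians and 0 to 2 with single arrays left out (2 without GM 2). The replicate numbers do not pair the mice; the block moved the other counts by less than 1.5 times. MET minus CON split into 74.6% higher with equal medians, against 44% without that scaling, and GM minus MET into 75.8% against 49.7%; the median of GM minus CON was 0.087 in place of -0.048. The 16 arrays alone leave fewer residual degrees of freedom and also give another estimate of the spread. The standard error of the interaction was 0.109 against 0.0988 for Nmt1 and 0.168 against 0.1849 for Srebf1. The cause of the changes in count was not tested for any setting. Uncalled interactions near 0 changed sign: Scd1 to 0.0885 without the 3 arrays and -0.4676 (without MET 3) to 0.1368 (without GM 3) with single arrays left out, and Txnip to 0.0469 with equal medians, 0.0547 without the 3 arrays and -0.3493 to 0.2594 with single arrays left out. Of the named genes called, 13 of 35 for metformin and 16 of 35 for glipizide stayed called in every alternative, and all kept their sign. With each array left out in turn, 20 of 35 stayed called for metformin and 20 of 35 for glipizide.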

Other observations

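Cyp2b13, a P450 of female-predominant expression in mouse liver, had the most negative interaction of its list and was singled out after its values were seen. It read 608, 138.6, 148.8 and 216.8 in GM, 2358.1, 4104.9, 891.3 and 1901.9 in MET, 2222.7, 522, 351 and 680.3 in GLIP and 879, 122, 970.9 and 427.9 in CON. All GM mice lay below all MET mice, while the other pairs overlapped. The interaction was -3.59 ± 0.85 and missed the threshold (adjusted p = 0.0872, with a range of 0.0272 to 0.244 over the alternatives). GM minus MET was -2.98 ± 0.60 (adjusted p = 0.0066) and MET minus CON 2.04 ± 0.60 (adjusted p = 0.0486).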
